A study of Homo sapiens with 6 samples.

Results

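IKBKE, IRF1, TMEM173 (now named STING1), C6orf150 (now named CGAS), PARP14 and APOBEC3F are 6 genes of innate immune sensing. They were taken by symbol from the authors' deposited table of selected genes, in which 405 probe sets carry a gene name, and 1 row was found for each. The deposited value table, with 32321 probe sets, gave their levels on all 6 arrays. Panc-1, a human line that grew out of a pancreatic ductal tumour, was transfected with pCIG, a plasmid known to drive its insert from a chicken beta-actin promoter with a cytomegalovirus enhancer. The empty vector went into 3 samples and pCIG-Gli3T, which expresses a dominant-negative repressor of Gli transcription factors, into 3. Cells positive for the plasmid's GFP reporter were sorted 24 h after transfection, and their total RNA was hybridised to Affymetrix arrays. Every sample therefore held lipofected plasmid DNA and was 1 cell line, and nothing in the labels says whether the 3 arrays of a group came from separate cultures. The p-values measure only the spread between these arrays, which may be technical.

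cGAS binds double-stranded DNA in the cytosol and makes the second messenger cGAMP, which STING on the endoplasmic reticulum binds. STING then recruits TBK1 and the related kinase IKK-epsilon, the product of IKBKE, and these act on IRF3 and on NF-kB to turn on interferon and inflammatory genes. IRF1, PARP14 and the APOBEC3 genes are among the genes that interferons induce in many cell types. IKBKE is also known as an oncogene that is amplified in breast cancer.

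The 2 deposited tables were first set against each other, since cells in the table of selected genes are displaced. None of the 6 genes stood in a displaced row. For IKBKE, IRF1, STING1, CGAS and PARP14 the first 5 cells lay within 0.05 log2 of the same probe set in the value table, whereas the sixth, headed Gli3T replicate 3, lay 0.21 to 1.37 away. For APOBEC3F all 6 cells differed between the tables, as described with that gene. The cell of the IRF1 row headed Gli3T replicate 3 read 9.92, as did IKBKE on that array in the value table, and the IKBKE row stands 7 rows further up. The value table supplied the third array labelled Gli3T for all 6 genes, and the values below come from it unless stated otherwise.

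**Figure D1:**
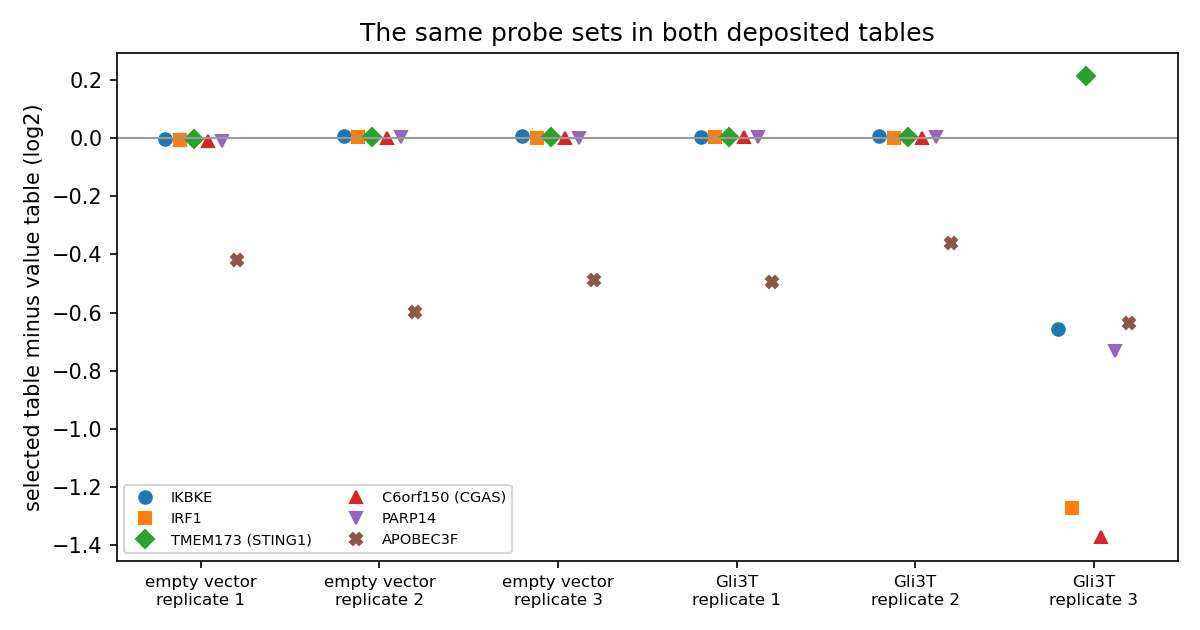
Each point is the log2 value of 1 cell in the authors' table of selected genes minus the value of the same probe set in the value table, for the 6 genes (symbols) under each of the 6 array headings (x axis). Except for APOBEC3F, which lay 0.36 to 0.60 lower, the cells of the first 5 headings sit at 0, and the cells headed Gli3T replicate 3 do not.

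GLI3, the source of the Gli3T sequence (probe set 8139212), had its lower values under the Gli3T label. It read 9.20, 9.12 and 9.31 with the empty vector and 8.0, 7.92 and 7.71 with the Gli3T label, a log2 difference of -1.34 ± 0.11 (SE, n = 3 per group). PTCH1, the hedgehog receptor and a known Gli target (probe set 8162533), read 8.28, 7.94 and 8.10 against 8.99, 8.91 and 9.15, a log2 difference of 0.91 ± 0.12 (SE). Neither gene went the way that a gain of GLI3 sequence or repression of a Gli target would go, and whether the GLI3 probes detect the construct was not tested. Whether the labels of the groups were exchanged was not tested, and an exchange would turn every direction given here. Directions are therefore given between the arrays labelled Gli3T and the arrays labelled empty vector. In limma's fit over all probe sets, 2.47% were called at an adjusted p of 0.05, 1.40% higher and 1.06% lower in the arrays labelled Gli3T. The arrays correlated at 0.98 to 0.996, and empty vector replicate 1 had the lowest limma array weight, 0.133, against 0.372 to 4.46 for the others. That array's median log2 value was 8.53, against 8.38 to 8.42 on the others. Panc-1's epithelial markers and the markers of leukocytes, endothelium and fibroblasts, 32 genes in all, were not analysed here, since gene names came only from the table of selected genes.

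All 6 genes were higher under the Gli3T label, by 0.60 to 0.97 log2, or 1.52-fold to 1.96-fold. For each of them the lowest array labelled Gli3T lay above the highest empty-vector array, and over all probe sets this held for 11.4%. By limma with Benjamini-Hochberg adjustment over all 32321 probe sets, 5 of the 6 were called, all of them higher, and APOBEC3F missed the threshold at an adjusted p of 0.0603. The authors had selected these genes for this very contrast, so the counts and p-values describe that selection and support nothing further. Of the 398 selected genes in the value table, 391 were called, and the smallest difference among them was 0.58 log2. In bulk RNA, a change in the number of cells expressing a gene and a change in RNA per cell cannot be told apart.

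**Figure D2:**
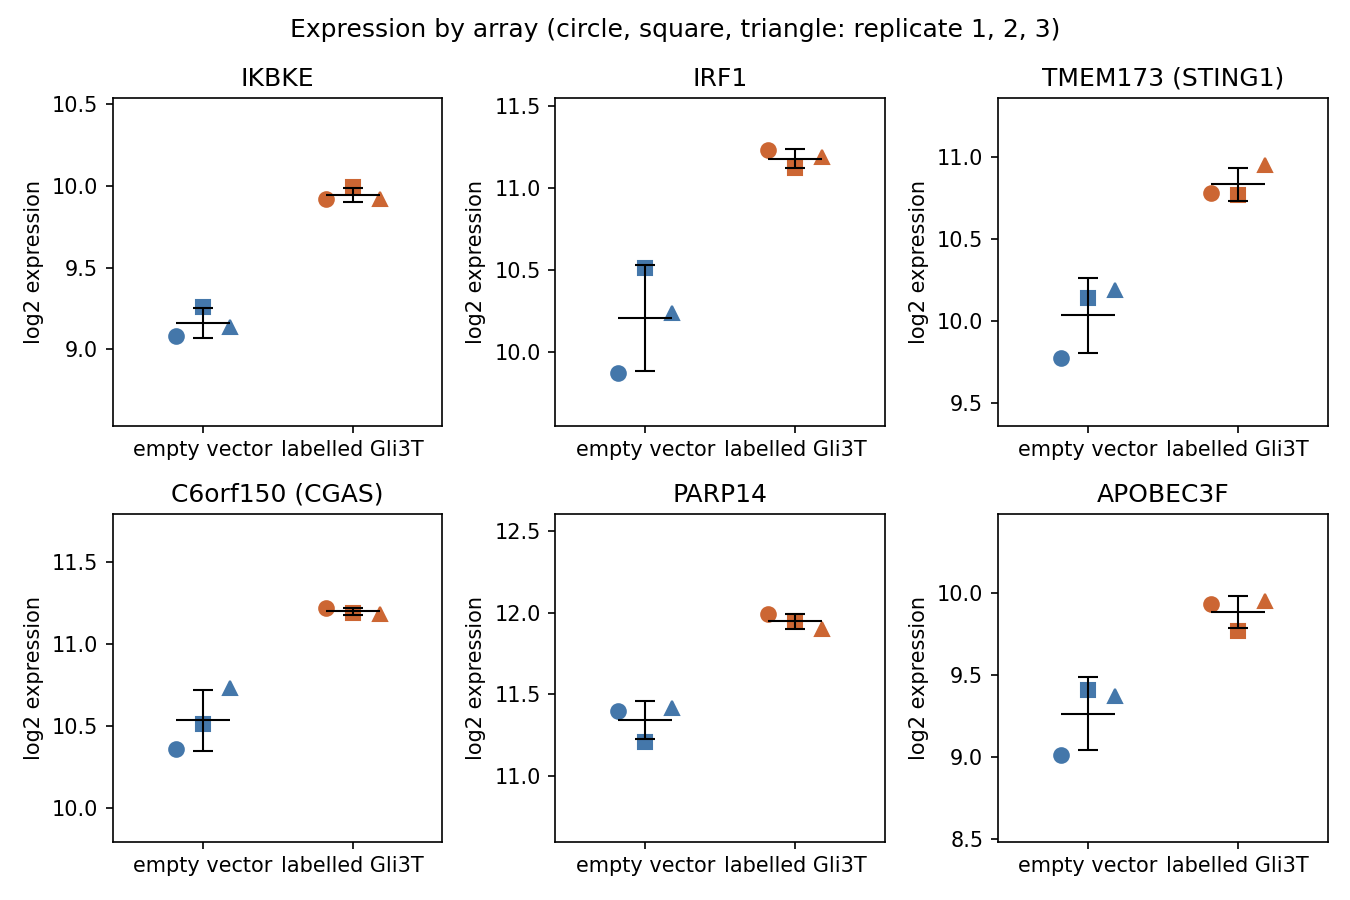
Log2 expression of the 6 genes on each array (y axes span 2.0 log2), with circles, squares and triangles for replicates 1, 2 and 3, and black bars for the mean ± SD of the 3 arrays of a group. The groups are separate in every panel, and the empty-vector arrays spread more widely than the arrays labelled Gli3T.

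Promoter sequence is printed for IKBKE, IRF1 and PARP14, the 3 of the 6 genes found in the RefSeq promoter table (GRCh38.p14), because these genes were higher together in an experiment on a repressor of Gli. Each run covers the 250 bases before the gene's start, 5′ to 3′ on the gene's strand, at chr1:206470226-206470475 (plus strand) for IKBKE, chr5:132490774-132491023 (minus strand) for IRF1 and chr3:122680589-122680838 (plus strand) for PARP14. The PTCH1 run, at chr9:95509410-95509458 (minus strand), is 49 bases around a Gli motif in 1 of that gene's promoters and is given to show the motif. It was kept because it holds the motif, and any PTCH1 promoter without it was left out. Its match is therefore not a result to set against the 3 windows. Capitals mark matches to any of 4 motifs searched on both strands, with no overlap between the matches shown.
IKBKE: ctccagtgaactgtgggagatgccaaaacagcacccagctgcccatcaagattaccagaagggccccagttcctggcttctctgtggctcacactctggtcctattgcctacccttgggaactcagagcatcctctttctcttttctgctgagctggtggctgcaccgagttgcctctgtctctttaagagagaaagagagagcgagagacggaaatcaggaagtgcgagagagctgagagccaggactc
IRF1: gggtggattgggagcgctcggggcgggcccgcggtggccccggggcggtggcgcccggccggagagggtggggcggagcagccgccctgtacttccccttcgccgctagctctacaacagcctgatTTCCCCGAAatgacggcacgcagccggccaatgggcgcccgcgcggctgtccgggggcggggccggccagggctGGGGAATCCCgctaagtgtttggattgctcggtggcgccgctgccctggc
PARP14: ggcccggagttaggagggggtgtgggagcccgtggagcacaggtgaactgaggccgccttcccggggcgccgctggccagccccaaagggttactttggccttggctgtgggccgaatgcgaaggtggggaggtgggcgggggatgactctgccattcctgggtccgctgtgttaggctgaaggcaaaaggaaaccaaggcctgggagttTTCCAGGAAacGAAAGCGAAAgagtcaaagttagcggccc
PTCH1: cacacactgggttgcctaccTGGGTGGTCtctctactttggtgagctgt
The Gli motif GACCACCCA matched in none of the 3 windows, and in 0.199% of the 35116 promoter windows of the same length. In the PTCH1 run it reads TGGGTGGTC, the other strand of the motif. The interferon-stimulated response element, searched as GAAA and GAAA with any 2 bases between them, matched in the PARP14 window at positions -29 to -20 from the start and in 3.02% of all windows. It also matched at -29 to -20 in the PTCH1 promoter, outside the 49 bases printed. The STAT-binding GAS element, searched as TTCNNNGAA, matched in the IRF1 window at -124 to -116, in the PARP14 window at -40 to -32, and in 6.57% of all windows. The kappaB consensus, which NF-kB proteins bind, matched in the IRF1 window at -50 to -41 and in 9.96% of all windows. The IKBKE window held no match to the 4 motifs. A match here is a match of letters and was not tested for binding.

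IKBKE (probe set 7909188) encodes the kinase that phosphorylates IRF3 beside TBK1. It read 9.08, 9.26 and 9.14 with the empty vector and 9.92, 9.99 and 9.92 in the arrays labelled Gli3T. The arrays lay close together within each group and 0.65 log2 apart between the groups. The means were 9.16 ± 0.09 and 9.94 ± 0.04 (SD, n = 3 each), a log2 difference of 0.78 ± 0.08 (SE; 95% interval 0.59 to 0.98), or 1.72-fold (limma, adjusted p = 0.0166). The published study is known for naming IKBKE as a gene that depends on Gli activity. That study's evidence was not among the sources used here, so whether it concerns a like measurement is not known. Here IKBKE was higher under the Gli3T label, a direction that holds only if the labels are right. Its dependence on Gli was not tested. IKBKE had the smallest spread of the 6 genes in the empty-vector arrays, and its difference stayed between 0.74 and 0.83 when each array was left out in turn. Its adjusted p then ran from 0.0114 to 0.127, past 0.05 without empty vector replicate 3 and without any 1 of the arrays labelled Gli3T.

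C6orf150, or CGAS (probe set 8127534), encodes the DNA sensor itself. It read 10.36, 10.51 and 10.73 with the empty vector and 11.22, 11.19 and 11.18 in the arrays labelled Gli3T. The empty-vector arrays were spread out, whereas the other 3 spanned 0.03 log2. The log2 difference was 0.66 ± 0.11 (SE; 95% interval 0.40 to 0.92), or 1.58-fold (limma, adjusted p = 0.0375). With each array centred on its median it was 0.72, with an adjusted p of 0.0502.

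TMEM173, or STING1 (probe set 8114536), encodes the adaptor that binds the messenger made by cGAS. It read 9.77, 10.14 and 10.19 with the empty vector and 10.78, 10.77 and 10.95 in the arrays labelled Gli3T. Replicate 1 stood below the other empty-vector arrays. The log2 difference was 0.80 ± 0.13 (SE; 95% interval 0.49 to 1.11), or 1.74-fold (limma, adjusted p = 0.0368), and it was 0.67 without that array. The sensor and its adaptor were thus higher side by side, and their intervals overlapped.

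IRF1 (probe set 8114010), a transcription factor that binds response elements in interferon-induced promoters, had the largest difference of the 6. It read 9.87, 10.51 and 10.24 with the empty vector and 11.23, 11.12 and 11.19 in the arrays labelled Gli3T. Its empty-vector arrays spread over 0.64 log2 (SD 0.32), the widest of the 6 genes, with replicate 1 lowest. The log2 difference was 0.97 ± 0.16 (SE; 95% interval 0.59 to 1.35), or 1.96-fold (limma, adjusted p = 0.0374). It ranged from 0.81 without empty vector replicate 1 to 1.13 without replicate 2. With limma's array weights, which give replicate 1 the least say, it was 0.72.

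PARP14 (probe set 8082100) encodes an ADP-ribosyltransferase with macrodomains. It read 11.40, 11.21 and 11.42 with the empty vector and 11.99, 11.95 and 11.90 in the arrays labelled Gli3T. It was the 1 gene of the 6 whose lowest empty-vector value was in replicate 2 and not in replicate 1. The log2 difference was 0.60 ± 0.09 (SE; 95% interval 0.39 to 0.82), or 1.52-fold, the smallest of the 6 (limma, adjusted p = 0.0292).

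APOBEC3F (probe set 8073081) encodes a cytidine deaminase that restricts retroviruses by editing their DNA. It read 9.01, 9.41 and 9.37 with the empty vector and 9.93, 9.77 and 9.95 in the arrays labelled Gli3T. The log2 difference was 0.62 ± 0.13 (SE; 95% interval 0.32 to 0.92), or 1.54-fold, which limma did not call (adjusted p = 0.0603), and 0.49 without empty vector replicate 1, where it was called (adjusted p = 0.0289). Its row in the authors' table of selected genes held other values for the same probe set. There it read 8.59, 8.81 and 8.88 with the empty vector, and 9.43 and 9.41 in the first and the second array labelled Gli3T. These cells were 0.36 to 0.60 log2 lower than in the value table. Of the 398 selected genes in both tables, 397 had their 5 readable cells within 0.05 log2, and APOBEC3F was the exception. No probe set of the value table came nearer to those 5 cells than 0.132 log2 in the largest gap, so the row is not a copy of another probe set there. The difference in the authors' table, over the 5 cells, was 0.66. The APOBEC3 genes are close paralogues, so this probe set may also detect their transcripts.

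**Figure D3:**
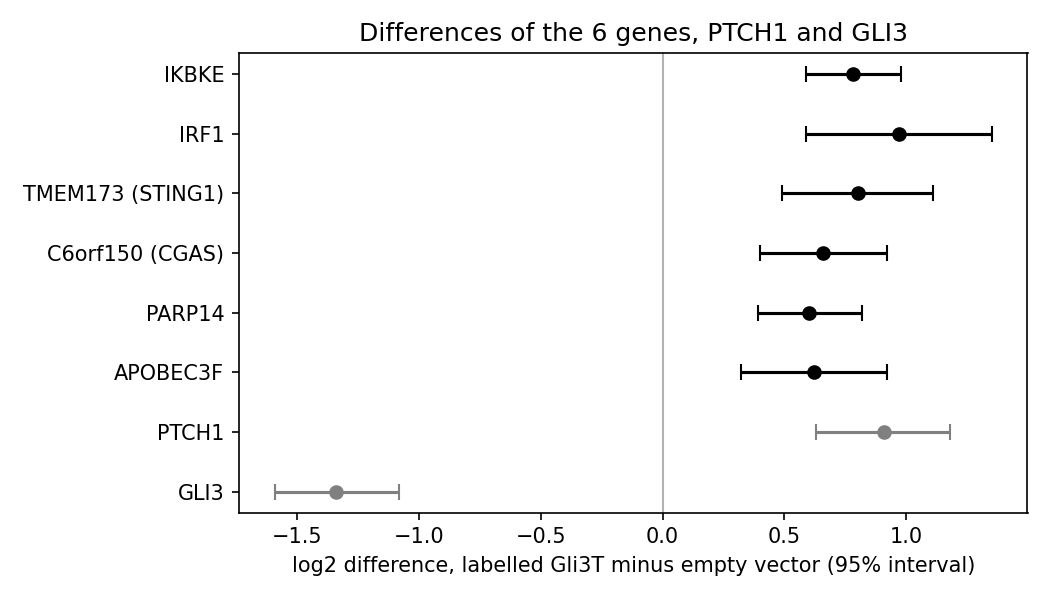
Log2 difference between the arrays labelled Gli3T and the empty-vector arrays (x axis), with 95% intervals from limma over 3 arrays per group, for the 6 genes (black) and for PTCH1 and GLI3 (grey). The intervals of the 6 genes lie above 0 and overlap each other, and the interval of GLI3 lies below 0.

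The differences of the 6 genes, in falling order IRF1, STING1, IKBKE, CGAS, APOBEC3F and PARP14, had intervals that all overlapped, so the order is not resolved. Their median was 0.72, against -0.05 over all probe sets and 0.74 over the 262 selected genes that were higher. IRF1 was exceeded by 65 of the 32321 probe sets, STING1 by 152, IKBKE by 175, CGAS by 371, APOBEC3F by 469 and PARP14 by 516. The 6 genes thus sat in the upper tail of the whole array, where the authors' selection had placed them. Their median lay near that of the selected genes that were higher. IRF1, STING1 and IKBKE were above that median of 0.74, and CGAS, APOBEC3F and PARP14 below it.

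**Figure D4:**
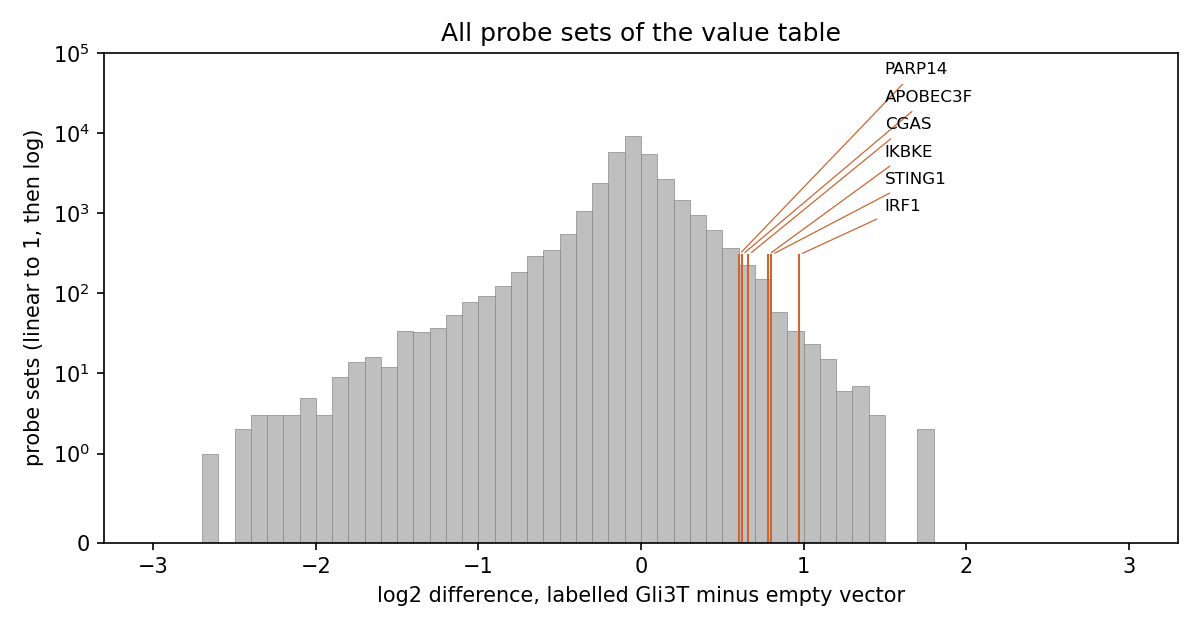
Number of probe sets (y axis, linear up to 1 and logarithmic above) by log2 difference between the arrays labelled Gli3T and empty vector (x axis, bins of 0.1), for all 32321 probe sets of the value table. Orange lines mark the 6 genes, from PARP14 at 0.60 to IRF1 at 0.97, in the upper tail.

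The groups also differed in spread. The SD over the empty-vector arrays ran from 0.09 for IKBKE to 0.32 for IRF1, and over the arrays labelled Gli3T from 0.02 for CGAS to 0.10 for STING1. Over all probe sets the median SD was 0.18 and 0.08. In 5 of the 6 genes, PARP14 being the exception, empty vector replicate 1 was the lowest array of its group. This was so for 36.1% of all probe sets and for 69.8% of the selected genes that were higher. The part of that array in the results was measured by leaving it out, which gave differences of 0.49 to 0.81 with all 6 genes called, beside 6.74% of all probe sets. Leaving out empty vector replicate 2 left IKBKE and IRF1 called, beside 1.7% of all probe sets. Leaving out empty vector replicate 3, or any 1 array labelled Gli3T, left none of the 6 called by limma, with adjusted p from 0.0568 to 0.248, while all 6 kept an unadjusted p under 0.05 in each of those fits. Those fits called 0.213% of all probe sets without empty vector replicate 3, and 0, 1 and 0 probe sets without Gli3T replicates 1, 2 and 3, so the loss and gain of calls ran across the whole array.

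**Figure D5:**
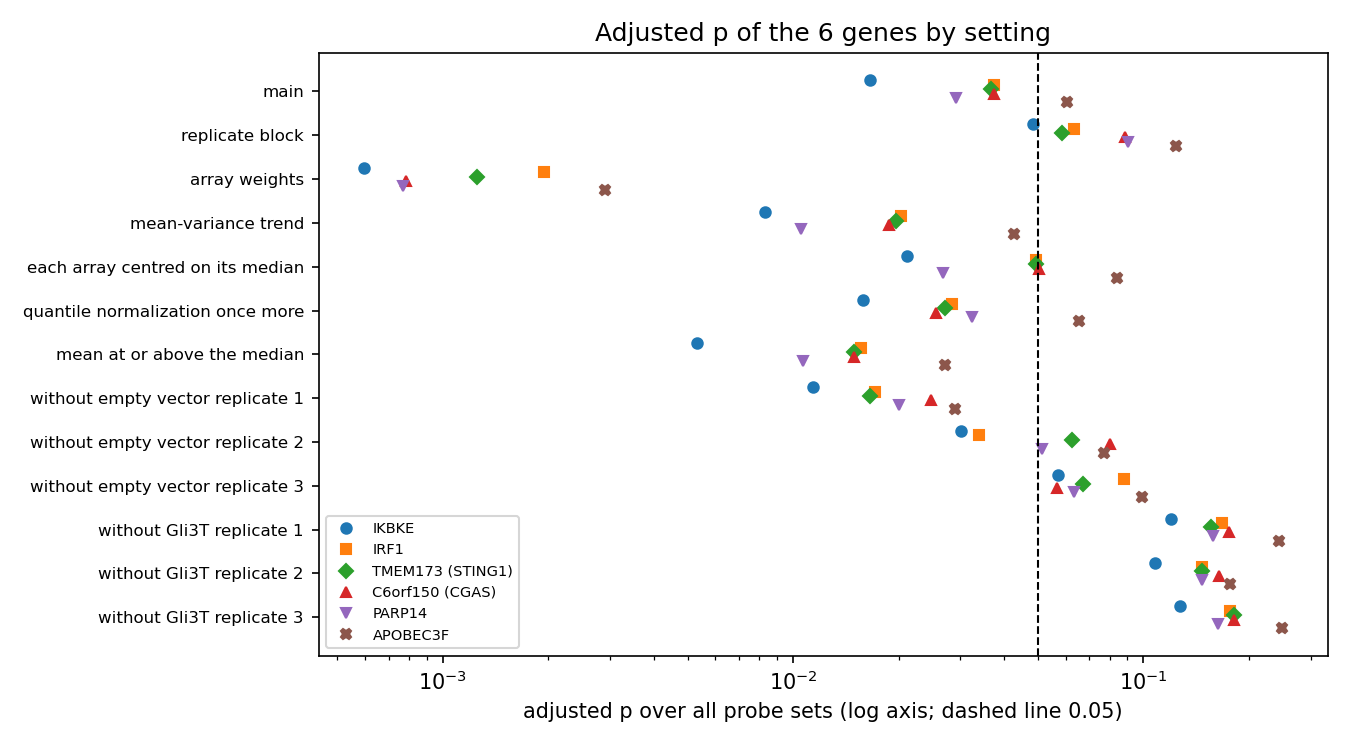
Adjusted p over the probe sets tested (x axis, logarithmic, dashed line at 0.05) for each of the 6 genes (symbols) under each setting of the fit (rows). IKBKE lies below 0.05 in 9 of the 13 settings, and all 6 genes lie above it when empty vector replicate 3 or any array labelled Gli3T is left out.

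Few other genes of these pathways could be read, because names were available for the selected genes alone. The 9 lists of innate sensing, interferon, PARP, APOBEC and antigen presentation genes held 205 distinct genes, of which 9 had a name, 6 of them the genes described above. The cytosolic DNA sensing list had 3 of 31, the interferon regulatory factor list 2 of 12, the interferon-stimulated list 3 of 53, and the IKK, PARP and APOBEC lists 1 each of 26, 18 and 11. All of these except APOBEC3F were called higher, none lower, beside 1.40% of all probe sets, and selection for this contrast is why they could be named. The lists of RNA sensing, of interferons with their receptors and of antigen presentation had none. TBK1, IRF3, IFNB1, ISG15, GLI1 and GLI2 were not analysed here.

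TNFSF10, the death ligand TRAIL and an interferon-induced gene (probe set 8092169), read 9.13, 9.64 and 9.75 with the empty vector and 10.82, 10.63 and 10.63 in the arrays labelled Gli3T. It was higher by 1.19 ± 0.17 log2 (SE; limma, adjusted p = 0.0282), again with replicate 1 lowest. C14orf4, now IRF2BPL and named for its likeness to IRF2-binding proteins (probe set 7980338), was higher by 0.91 ± 0.09 (SE; limma, adjusted p = 0.0132). TTLL4, a glutamylase that modifies cGAS in mice (probe set 8048411), was higher by 0.64 ± 0.09 (SE; limma, adjusted p = 0.0273).

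Among 360 other selected genes with a mean above the median of all probe sets, those most like IKBKE across the 6 arrays were FAM102A (now EEIG1), C14orf4, ABCC3, SLC12A7 and CDC42EP4. Their Pearson correlations with IKBKE were 0.997, 0.9969, 0.9966, 0.9965 and 0.9957. All points share the contrast between the groups, for which every one of these genes had been selected, and their own differences ran from 0.58 for ABCC3 to 0.91 for C14orf4. The other 5 genes of innate sensing correlated with IKBKE at 0.935 (APOBEC3F) to 0.966 (IRF1) and ranked 156 to 240 of the 360, behind many genes of other functions. Only 262 of all selected genes were higher, so the 360 included genes that were lower under the Gli3T label.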

How the data were processed

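RNA of sorted Panc-1 cells was measured on 6 Affymetrix arrays, 3 per group, labelled with a whole-transcript kit per the labels. Both deposited tables hold expression on the log2 scale. The submitters' processing notes name RMA, oligo and limma, with no versions. Selection limits, array annotation and build are not given in the sources used here. The number of arrays limits the precision.

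The 6 genes were found by symbol in the authors' table of selected genes, whose 139 displaced rows (first sample cell at most 1.0) held none of them. Levels came from the value table, matched by probe set. Of 405 named probe sets, 398 were found there and 7 were not. The 1 unnamed column of the selected table was not used. TMEM173 and C6orf150 were given their current symbols from the RefSeq gene table (GRCh38.p14).

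limma 3.58.1 in R 4.3.3 compared the groups over all 32321 probe sets, without covariates, and was tested on simulated data. There, planted differences of 0.6, 0.8 and 1.0 log2 were called in 28.0%, 52.0% and 72.0% of 50 probe sets each. Of the probe sets with none planted, 0.0218% were called. The simulated noise was normal, with residual spreads shuffled between probe sets and the same spread on all 6 arrays. The real groups differed in spread (median SD 0.18 with the empty vector, 0.08 under the Gli3T label), so these rates need not hold for them. Intervals are 95%. Groups came from sample titles. The genes, lists and rule for named genes were chosen with earlier results of these data known. Named were the 6 genes, GLI3, GLI1, GLI2 and PTCH1, up to 8 called genes per list, TBK1, IRF3, IFNB1, ISG15 and 1 gene not reported here, and the 5 genes most like IKBKE. Lists used no set test. Alternatives were the replicate number as a block, array weights, a mean-variance trend, centring, quantile normalization, limits on level and fold, leaving out each array, and the cells of the selected table. Python 3.11.15, pandas 2.3.3 and matplotlib 3.10.9 were used.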

Additional observations from a re-analysis of the deposited data

How the results depend on the processing

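All 6 differences kept their direction in the 78 values obtained under the alternatives. Leaving out or weighting arrays could not turn them, as the groups did not overlap. The replicate block, the mean-variance trend and the limit on level leave each difference as it was in the main fit. The kept direction is therefore no support for the differences. Of these values, 28 lost the call, 4 gained it (all APOBEC3F) and 40 stayed on their side of the threshold. The other 6, from the cells of the selected table, had no test and moved by less than 1 SD. The count of 798 probe sets called by limma (2.47%) was 240 with the replicate block (0.743%) and 7104 with array weights (22.0%). It was 1292 with a mean-variance trend (4.0%), and 1446 of the 16161 probe sets at or above the median mean (8.95%). It ran from 0 to 2178 when each array was left out, with 3469 to 3471 at an unadjusted p under 0.05 in the fits that called 0. Each of these fits had fewer arrays than the main one, and the cause of the range was not tested. Of the 6 genes, 5 were called in the main analysis, 1 with the replicate block (IKBKE, adjusted p = 0.0485) and 0 to 6 when each array was left out. The block gave adjusted p-values of 0.0587 to 0.124 for the other 5. Same-numbered arrays deviated from their group means with correlations of -0.304, -0.142 and 0.044, and differently numbered arrays with -0.334 to 0.384. Whether same-numbered samples were prepared together was not tested, and these correlations cannot tell. With the block the named genes called were 0 of 3 in the DNA sensing list, 1 of 2 in the regulatory factor list, 0 of 3 in the interferon-stimulated list and 0 of 1 in the PARP list. The block called 0.743% of all probe sets. The APOBEC list went from 0 to 1 with array weights, the trend and the limit on level. These called 22.0%, 4.0% and 8.95% of the probe sets tested, against 2.47% in the main fit. Leaving out each array gave 0 to 3 calls in the DNA sensing and interferon-stimulated lists and 0 to 2 in the regulatory factor and hedgehog lists. The IKK, PARP and APOBEC lists had 0 to 1. Over all probe sets these fits called 0% to 6.74%. A fit over probe sets with 1 gene symbol, and the lowest of several probe sets, were not run: symbols came only from the selected table, with 1 probe set per gene. Signal over background was not known.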
